A study of Mus musculus with 6 samples.

Results

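The genes described here are 10 markers of the endothelial cells that line brain blood vessels and form the blood-brain barrier. They were matched by symbol in the 36210 gene rows of the expression table, from a list chosen with earlier results of these data known. All 10 passed the filter on low counts, as did 20363 gene rows in all. Cldn5 (Entrez gene 12741), Cdh5 (12562), Pecam1 (18613) and Ly6c1 (17067) encode junction and surface proteins. Flt1 (14254), Kdr (16542) and Tek (21687) encode receptors for vascular growth factors. Slc2a1 (20525), Slco1a4 (28250) and Abcb1a (18671) encode transporters of the barrier.

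The RNA came from brain material, labelled as adult astrocytes, of APP/PS1 mice aged 8 months, a transgenic model of Alzheimer's disease. Both groups carried the transgenes, so no comparison here is with mice free of them, and the labels name no promoter for them. Daily intraperitoneal injections over 30 days held 0.9% saline for the 3 vehicle libraries. For the 3 AVE0991 libraries they held AVE0991, dosed at 10 mg per kg of body weight. AVE0991 is a synthetic, non-peptide agonist of the Mas receptor, through which a short angiotensin peptide acts on blood vessels and brain cells. The labels do not say whether each library came from its own animal, so the p-values measure the spread between these libraries, which may be technical in part.

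Brain endothelial cells differ from those of most organs in that continuous tight junctions seal the gaps between them, and solutes cross mainly by dedicated transporters. Claudin-5 is the main sealing protein of those junctions, VE-cadherin (Cdh5) holds neighbouring cells together, and the glucose carrier encoded by Slc2a1 feeds the brain. Vascular endothelial growth factor acts through Kdr and is trapped by Flt1, angiopoietins act through Tek, and Wnt ligands from neural cells keep the barrier program on. Endothelial cells are a small minority of brain cells, and astrocyte end-feet cover most of the capillary surface. Slc2a1 is also transcribed in astrocytes and other brain cells, so it is the least exclusive of the 10.

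The gene rows held between 44583296 and 50066692 counts per library. Summed over each list of marker genes, astrocyte markers reached 5578 to 7803 counts scaled to library size (CPM), neuronal markers 3413 to 4428, oligodendrocyte markers 3694 to 11941.5, pericyte and smooth muscle markers 172 to 277 and the 10 endothelial and barrier genes 129 to 310. By these levels the labelled cell type was present and was not the only one. No tested gene of any list was at 0 in any library, which the filter on low counts made likely beforehand. Cerebellar granule cell markers were high in AVE0991 replicates 2 and 3 (1663 and 1637 CPM) and lay between 128 and 159 CPM in the other libraries, counting 148 CPM in AVE0991 replicate 1.

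Sequence upstream of the start is shown for 4 genes that stand at the ends of the results below: Cldn5 and Slco1a4, whose ratios to both Cdh5 and Pecam1 were lower in the AVE0991 libraries without reaching significance, Flt1, which followed the shared endothelial profile most closely, and Slc2a1, the highest and least typical member. Each line gives the 250 bases before the annotated start, read 5′ to 3′ on the gene's strand, from RefSeq on build GRCm38.p6. They are chr16:18776597-18776846 (+) for Cldn5, chr4:119108495-119108744 (+) for Slc2a1, chr5:147726012-147726261 (-) for Flt1 and chr6:141856221-141856470 (-) for Slco1a4. Capitals mark GGAAG or its complement CTTCC, the core that ETS factors, the family of Erg and Fli1, bind in endothelial genes.
Cldn5: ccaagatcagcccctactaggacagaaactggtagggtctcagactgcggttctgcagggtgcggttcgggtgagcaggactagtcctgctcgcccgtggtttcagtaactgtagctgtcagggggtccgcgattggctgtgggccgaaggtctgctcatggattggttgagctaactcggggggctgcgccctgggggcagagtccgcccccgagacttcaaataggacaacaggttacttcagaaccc
Slc2a1: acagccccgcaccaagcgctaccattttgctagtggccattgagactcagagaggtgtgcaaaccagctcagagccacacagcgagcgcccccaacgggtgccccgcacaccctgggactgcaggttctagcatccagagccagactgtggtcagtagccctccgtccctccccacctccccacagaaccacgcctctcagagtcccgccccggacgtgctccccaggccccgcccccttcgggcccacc
Flt1: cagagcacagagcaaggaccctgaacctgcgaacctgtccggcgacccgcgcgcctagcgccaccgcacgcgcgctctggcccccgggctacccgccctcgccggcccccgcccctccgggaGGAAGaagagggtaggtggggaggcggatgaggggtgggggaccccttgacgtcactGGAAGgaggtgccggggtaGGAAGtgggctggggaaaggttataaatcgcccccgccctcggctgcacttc
Slco1a4: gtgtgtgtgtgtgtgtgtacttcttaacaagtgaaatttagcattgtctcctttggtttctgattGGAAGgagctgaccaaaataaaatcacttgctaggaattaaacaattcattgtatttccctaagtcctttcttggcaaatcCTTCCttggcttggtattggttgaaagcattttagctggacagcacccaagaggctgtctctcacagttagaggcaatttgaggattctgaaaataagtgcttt

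The windows differed in base composition: G and C made up 59.6% of the Cldn5 window, 66.4% for Slc2a1, 70.4% for Flt1 and 39.2% for Slco1a4, against a median of 52.4% over 32851 such windows. The core, searched on both strands, occurred 3 times in the Flt1 window, 2 times for Slco1a4 and 0 times for Cldn5 and Slc2a1. Of the 10 genes 8 had a window, and 5 of these (Flt1, Kdr, Slco1a4, Ly6c1 and Abcb1a) held the core, as did 64.1% of all windows. The short core is thus common, and a match or its absence is a description of these letters only.

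Levels can be compared between genes only per transcript length, in the deposited FPKM values (fragments per kilobase of transcript, scaled to library size). In the vehicle libraries Slc2a1 was the highest, at 32.4 ± 10.3 FPKM (SD, n = 3), and no vehicle library of Cldn5, the next gene, reached its range. Cldn5 (11.1 ± 5.32), Ly6c1 (9.98 ± 6.48), Tek (8.65 ± 2.87), Flt1 (8.54 ± 4.36) and Slco1a4 (5.80 ± 1.51) followed, and each overlapped its neighbour in the order. Slco1a4 lay above Cdh5 (2.77 ± 1.16) in every vehicle library, without overlap. Cdh5, Abcb1a (2.75 ± 0.726), Pecam1 (2.70 ± 1.35) and Kdr (1.63 ± 0.566) each overlapped the next gene in the order, although Kdr was the lowest of these 4 in every vehicle library, at 1.32, 2.28 and 1.28 FPKM. In the AVE0991 libraries Slc2a1 again led, at 39.8 ± 16.6 FPKM, and Kdr was again lowest, at 1.23 ± 0.352. Tek (4.84 ± 0.964) and Slco1a4 (2.91 ± 0.824), which were neighbours there, did not overlap, nor did Abcb1a (2.36 ± 0.815) and Kdr. The places of Tek and Slco1a4 are uncertain, as their FPKM values kept no fixed ratio to CPM. FPKM divided by CPM was 0.596 to 1.22 for Tek, whose transcript has 4654 bases, and 0.2526 to 0.2685 for Cdh5, with 3995. For Slco1a4, with 3823 bases, it was 0.322 to 0.454. The separations of Slco1a4 from Cdh5 and of Tek from Slco1a4 therefore hold for the deposited FPKM values only.

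No endothelial or barrier gene differed between the AVE0991 and vehicle groups beyond the spread between libraries. In the fit across all genes (edgeR's quasi-likelihood test with Benjamini-Hochberg adjustment) 0 of 10 passed an adjusted p of 0.05, where 0.864% of all genes tested did, and the smallest adjusted p was 0.263. At an unadjusted p under 0.05 edgeR called 0 of the 10 and 23.6% of all genes, limma-voom called 0 and 30.1%, and DESeq2 called 1, Slco1a4, and 25.4%. Of the 10, 8 lay below 0 and 2 above, with a median log2 fold change of -0.10, beside -0.01 over all genes tested. The 2 groups' CPM ranges overlapped for every one of the 10, whereas they did not overlap for 30.6% of all genes. In the authors' deposited table the q-values of the 10 lay between 0.293 and 0.996. In bulk RNA, fewer endothelial cells and less RNA per cell cannot be told apart.

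**Figure D1:**
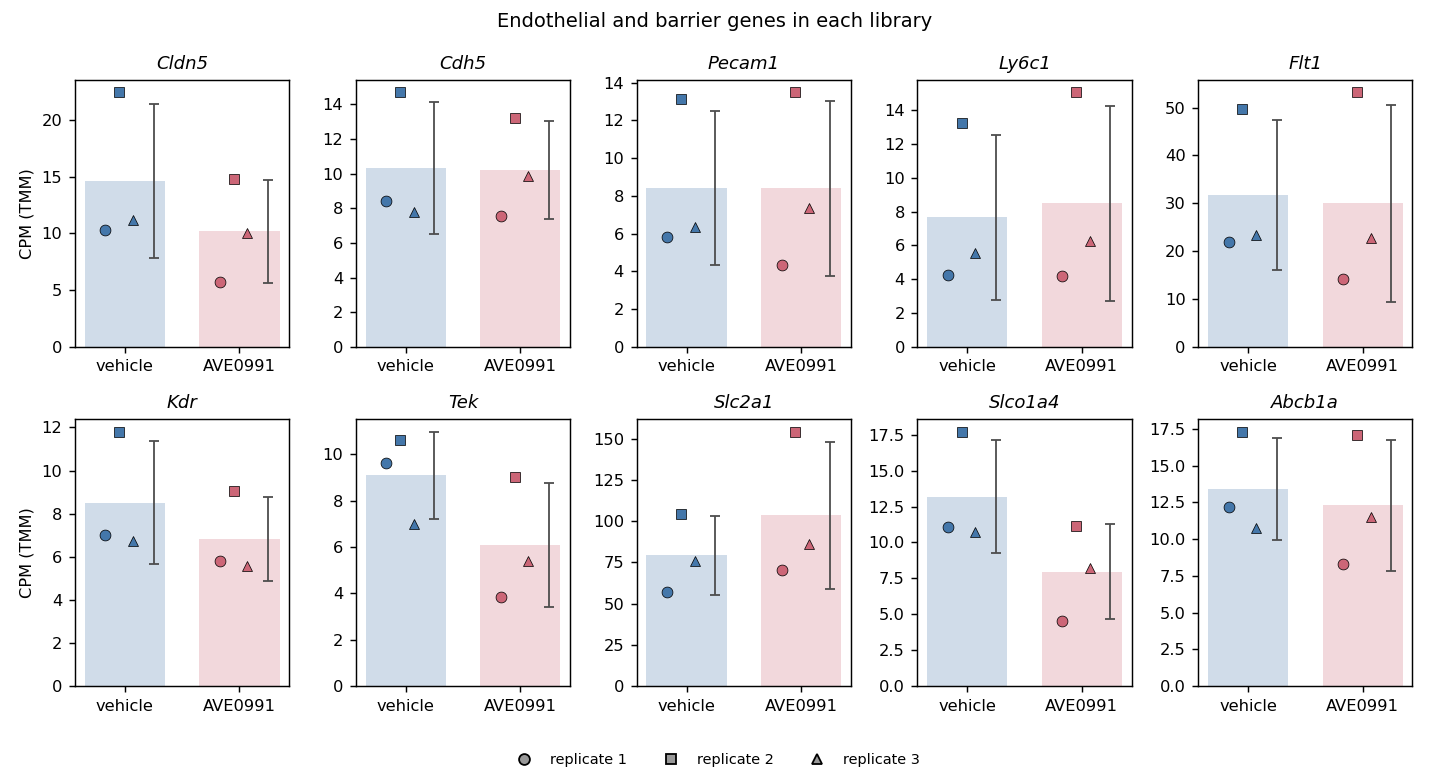
CPM after TMM scaling of each of the 10 genes (vertical axes, linear, from 0) in the 3 vehicle and 3 AVE0991 libraries. Bars are group means, error bars SD (n = 3) and symbols single libraries. The library numbered 2 is the highest of its group in all 20 group and gene combinations.

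Among the junction and surface genes, Cldn5 had the largest difference. It stood at 10.3, 22.4 and 11.1 CPM in vehicle replicates 1, 2 and 3 and at 5.72, 14.8 and 10.01 CPM in the AVE0991 replicates. AVE0991 replicates 1 and 3 were below all vehicle libraries, but replicate 2 was above 2 of the 3, so the groups overlapped. The log2 fold change was -0.52 (SE 0.42, 95% interval -1.53 to 0.49, edgeR adjusted p = 0.491). With a correction for the GC content of transcripts, which is 60.45% for Cldn5, it was -0.74 (edgeR adjusted p = 0.425).

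Cdh5 was level between the groups, with 8.44, 14.7 and 7.77 CPM in vehicle and 7.56, 13.2 and 9.85 CPM in AVE0991 libraries. The 95% interval of its fold change ran from 0.597 to 1.64, so the data leave changes within that range possible. Pecam1, the adhesion protein of all endothelium, read 5.84, 13.1 and 6.33 CPM in vehicle and 4.33, 13.5 and 7.38 CPM in AVE0991 libraries. Its groups overlapped widely, and the log2 fold change was -0.01 (SE 0.48). Ly6c1, a lipid-anchored surface protein of brain capillaries, read 4.23, 13.3 and 5.54 CPM in vehicle and 4.17, 15.1 and 6.26 CPM in AVE0991 libraries. Replicate 2 stood far above the others in both groups, and Ly6c1 had the largest ratio of that library to the mean of the other two in the vehicle group (2.71). Its log2 fold change of 0.15 had a 95% interval of -1.27 to 1.56, the widest of the 10. Reads of Ly6c1 and its close copy Ly6c2, which held 3.85% to 32.6% of the Ly6c1 count, may have been divided between them.

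Of the growth factor receptors, Flt1 was level and Kdr and Tek were lower in the mean without passing the test. Flt1, the decoy-like receptor for vascular endothelial growth factor, read 21.8, 49.8 and 23.4 CPM in vehicle and 14.1, 53.2 and 22.7 CPM in AVE0991 libraries. AVE0991 replicate 2 was the highest and replicate 1 the lowest of the 6, and the log2 fold change was -0.08 (SE 0.54). Kdr, the main signalling receptor for the same factor, read 7.03, 11.8 and 6.71 CPM in vehicle and 5.78, 9.06 and 5.58 CPM in AVE0991 libraries. Each AVE0991 library was lower than the vehicle library of the same number, but AVE0991 replicate 2 exceeded 2 vehicle libraries, and the numbers are not known to pair the libraries. The log2 fold change of Kdr was -0.32 (SE 0.29, edgeR adjusted p = 0.535). Tek, the angiopoietin receptor that keeps vessels quiescent, read 9.63, 10.6 and 6.99 CPM in vehicle and 3.83, 9.03 and 5.40 CPM in AVE0991 libraries. AVE0991 replicates 1 and 3 were below all vehicle libraries and replicate 2 lay inside the vehicle range. Its log2 fold change was -0.58 (SE 0.33, 95% interval -1.36 to 0.21, edgeR adjusted p = 0.331). In the deposited FPKM values, which varied against its counts by 2.04-fold between libraries, the groups of Tek did not overlap. In CPM 30.6% of all genes did not overlap either.

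The transporters differed in the direction of their means, and none passed the test. Slco1a4, which carries organic anions such as bile acids and some drugs across the endothelium, read 11.1, 17.7 and 10.7 CPM in vehicle and 4.55, 11.2 and 8.19 CPM in AVE0991 libraries. AVE0991 replicates 1 and 3 lay below all vehicle libraries, and replicate 2 was at the level of the 2 lower vehicle libraries. Its log2 fold change was -0.73 (SE 0.35, 95% interval -1.57 to 0.11), and it came nearest of the 10 to the threshold, at an edgeR adjusted p of 0.263 and a DESeq2 adjusted p of 0.173. DESeq2 called 11.5% of all genes at an adjusted p of 0.05 and limma-voom 5.75%, and neither called any of the 10. After a correction for the GC content of transcripts its log2 fold change was -0.33. That content is 40.3% for Slco1a4, with a median of 49.96% over the 15607 tested genes where it is known. In the deposited FPKM values the groups of Slco1a4 did not overlap, as those of 30.6% of all genes did not in CPM.

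Slc2a1 read 56.9, 104.5 and 76.1 CPM in vehicle and 70.5, 154.1 and 86.0 CPM in AVE0991 libraries. It was higher in the AVE0991 mean, by 0.39 on the log2 scale (SE 0.34, adjusted p = 0.524 by edgeR), with overlapping groups. Abcb1a, the drug efflux pump P-glycoprotein, read 12.2, 17.3 and 10.7 CPM in vehicle and 8.32, 17.1 and 11.5 CPM in AVE0991 libraries. Its groups overlapped, and the log2 fold change was -0.12 (SE 0.30). Its close copy Abcb1b held 7.74% to 29.8% of its count.

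**Figure D2:**
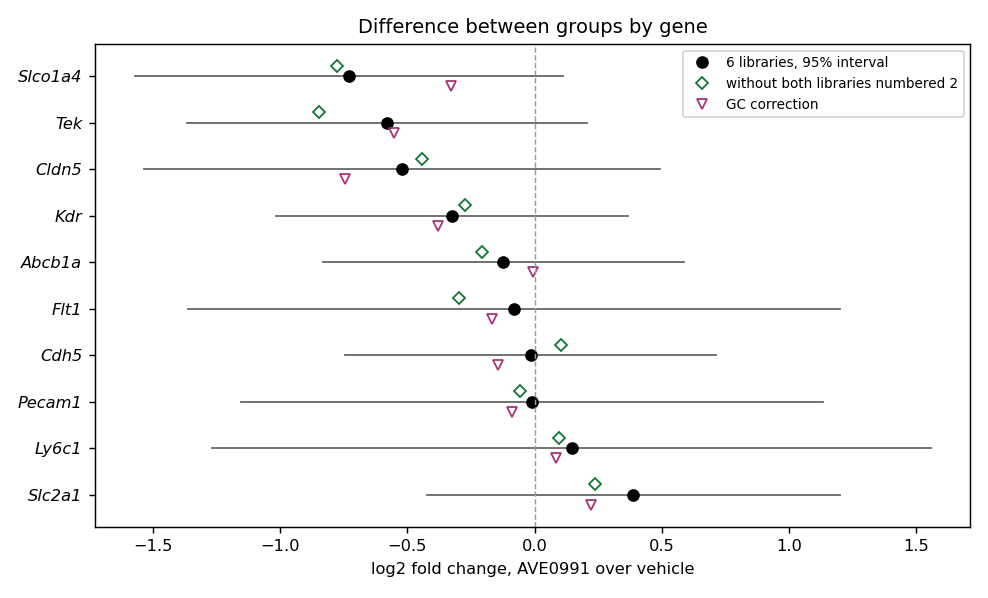
Log2 fold change of AVE0991 over vehicle (horizontal axis) for each gene, with its 95% interval from the edgeR fit as a line. Diamonds leave out the libraries numbered 2 of both groups and triangles correct for transcript GC content. Every interval from the 6 libraries crosses 0, and the Slco1a4 estimate moves from -0.73 to -0.33 with the GC correction.

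The 10 genes varied together between libraries rather than between groups. All 10 were highest in replicate 2 of the vehicle group and in replicate 2 of the AVE0991 group, an arrangement found in 11.1% of all genes tested. Relative to the mean of the other two libraries of its group, replicate 2 was 1.28 to 2.71 times as high in vehicle (median 1.76) and 1.52 to 2.89 times as high in AVE0991 (median 1.92), where the medians over all genes were 0.997 and 1.01. The lowest ratio was that of Tek in the vehicle group, and the highest that of Flt1 in the AVE0991 group. As z-scores over the 6 libraries, averaged over the 10 genes, the vehicle libraries stood at -0.32, 1.2 and -0.32 and the AVE0991 libraries at -1.21, 0.98 and -0.34. AVE0991 replicate 1 was thus the lowest library and the 2 replicates numbered 2 the highest.

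Leaving out the libraries numbered 2 of both groups, a choice made after seeing the data, again gave 0 of 10 past the threshold by edgeR. The median log2 fold change of the 10 was then -0.24, Tek stood at -0.85 (unadjusted p = 0.0291, edgeR adjusted p = 0.362) and Slco1a4 at -0.78. Without AVE0991 replicates 2 and 3, the libraries with the cerebellar markers, the median of the 10 was -0.92, a value that rests on AVE0991 replicate 1 alone. Leaving out 1 library at a time moved the median between -0.57, without AVE0991 replicate 2, and 0.22, without vehicle replicate 2, so its sign rests on single libraries. Again 0 of 10 passed in every one of these fits.

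Over the 45 pairs of the 10 genes, Pearson's r of log2 CPM across the 6 libraries ran from 0.32 to 0.99 with a median of 0.86, and 16 pairs exceeded 0.9. These correlations are descriptions over 6 points that share library depth and composition. Pecam1 and Flt1 were the closest pair (0.99), and Tek with Slc2a1 (0.32) and Slc2a1 with Slco1a4 (0.36) the loosest. By the median of its correlations with the other 9, Flt1 came first (0.92) and Slc2a1 last (0.73), below Tek (0.78) and Slco1a4 (0.80).

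Markers of some other cell types were also high in the libraries numbered 2. Summed red blood cell genes, led by the globins, stood at 89.3, 349.9 and 52.8 CPM in vehicle and 29.7, 102.2 and 26.5 CPM in AVE0991 libraries, and 5 of their 6 tested genes were highest in replicate 2 of both groups. Pericyte and smooth muscle genes, which mark the cells wrapped around the endothelium, summed to 179, 259 and 180 CPM in vehicle and 172, 277 and 204 CPM in AVE0991 libraries, and 10 of 15 were highest in both replicates 2. Choroid plexus and ependyma genes, which mark the lining of the ventricles, summed to 147, 1412.5 and 793 CPM in vehicle and 395, 579 and 398 CPM in AVE0991 libraries, and 5 of 7 were highest in both replicates 2. Oligodendrocyte genes followed the endothelial order only in part. They summed to 3694, 7946 and 8024 CPM in vehicle, where replicates 2 and 3 were level, and to 5588, 11941.5 and 5955 CPM in AVE0991 libraries, and 4 of 7 were highest in both replicates 2. Astrocyte genes followed another order, with 6933, 5578 and 6026 CPM in vehicle and 6281, 7257 and 7803 CPM in AVE0991 libraries, and 0 of 9 were highest in both replicates 2. Microglial genes also gave 0 of 7. The part of these cell types in the endothelial values was not tested.

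**Figure D3:**
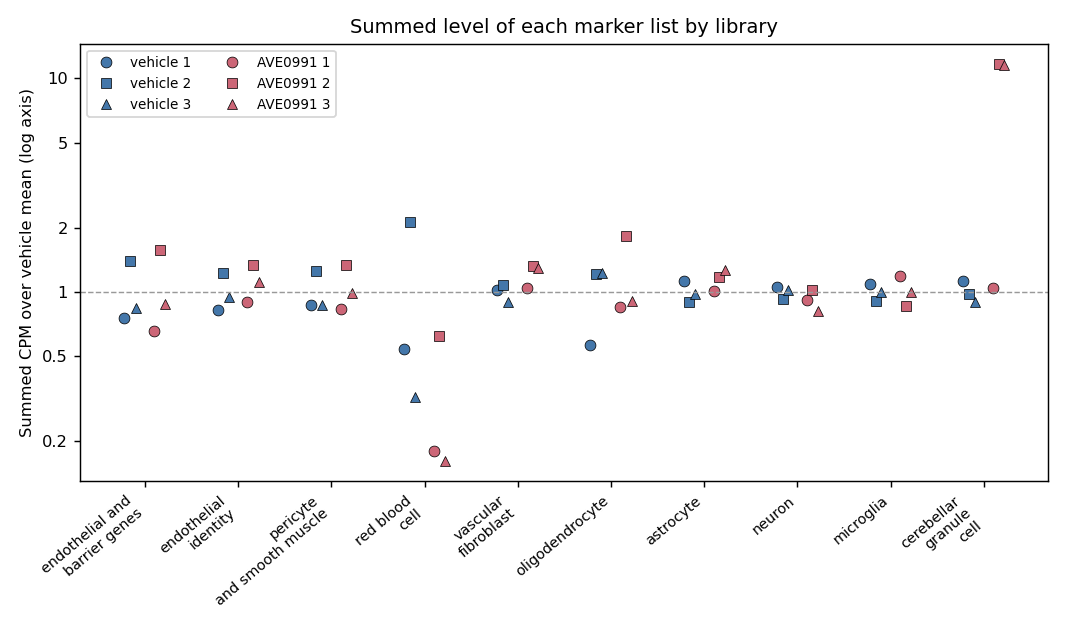
Summed CPM of each marker list in each library, divided by the vehicle mean of that list (vertical axis, log scale). Symbols are single libraries. Both libraries numbered 2 are the highest of their group for the endothelial and barrier genes (275 and 310 CPM), endothelial identity, pericyte and red blood cell lists, and cerebellar granule cell genes stand high in AVE0991 replicates 2 and 3.

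Because the shared rise and fall between libraries dominated the spread, each gene was also set against Cdh5 in the same library, a comparison added after seeing the data. On this scale 4 of 9 genes were lower in every AVE0991 library than in any vehicle library, and 0 were higher. Over all genes 2.82% were lower without overlap and 3.26% higher, against 16.3% and 14.3% in plain CPM. The 9 genes rose and fell with Cdh5 (Pearson's r of log2 CPM from 0.64 to 0.96). The share over all genes is therefore not a chance level for them. With 3 libraries against 3 the exact permutation test cannot go below 0.1, and each of the 4 had that two-sided p (0.225 after Benjamini-Hochberg adjustment over 9 ratios), so none could pass. The 9 ratios share a denominator and are not independent of each other. The Slco1a4 to Cdh5 ratio was 1.32, 1.21 and 1.38 in vehicle and 0.602, 0.845 and 0.832 in AVE0991 libraries, a 1.71-fold lower mean. The Cldn5 to Cdh5 ratio was 1.22, 1.53 and 1.43 in vehicle and 0.757, 1.12 and 1.02 in AVE0991 libraries, a 1.44-fold lower mean. In both cases the highest AVE0991 library stayed below the lowest vehicle library. The lowest ratio to Cdh5 was that of AVE0991 replicate 1, the library without high cerebellar markers. Against Pecam1 the lowest was AVE0991 replicate 2, a library with them, for both Cldn5 (1.10) and Slco1a4 (0.827). The part of the cerebellar cells in these ratios was not tested. Tek to Cdh5 was 1.59-fold lower and Kdr to Cdh5 1.24-fold lower, with narrow gaps: 0.685 against 0.725 for Tek and 0.765 against 0.804 for Kdr.

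The remaining ratios overlapped. Slc2a1 to Cdh5 was 7.88 ± 1.66 in vehicle and 9.91 ± 1.56 in AVE0991 libraries (SD, n = 3, exact permutation p = 0.3), and those of Pecam1, Ly6c1, Flt1 and Abcb1a to Cdh5 had exact permutation p-values from 0.2 to 1. With Pecam1 as the denominator, 2 of 9 were lower without overlap, Cldn5 and Slco1a4, where 0.801% of all genes were. That share too is not a chance level for the 9, which rose and fell with Pecam1 (Pearson's r from 0.71 to 0.99). The Cldn5 to Pecam1 ratio was 1.76, 1.71 and 1.76 in vehicle and 1.32, 1.10 and 1.36 in AVE0991 libraries, with means of 1.74 ± 0.029 and 1.26 ± 0.139 (SD, n = 3), a 1.38-fold difference. Its exact permutation p was the smallest possible, 0.1, and 0.45 after adjustment over 9 ratios. A ratio within a library shows unequal change between its 2 genes and not which of them changed.

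Cldn5 was lower without overlap in all 6 combinations tried of denominator (Cdh5 or Pecam1) and unit (CPM, FPKM or GC-corrected CPM), which share the same libraries. These combinations too were chosen after seeing the data. The Slco1a4 ratio overlapped once GC content was corrected, at 1.03, 1.06 and 1.15 in vehicle and 0.743, 1.03 and 0.976 in AVE0991 libraries against Cdh5, a 1.17-fold difference. Against Cdh5, Tek overlapped in FPKM and after GC correction, and Kdr in FPKM. With the levels of Pecam1 and Cdh5 as a covariate in the edgeR fit, chosen after seeing the data, Slco1a4 had a log2 fold change of -0.75 (SE 0.15, adjusted p = 0.0767) and Cldn5 one of -0.50 (SE 0.12, adjusted p = 0.101). Of the 10 genes 3 had an unadjusted p under 0.05 in that fit, as did 23.7% of all genes, and 0 of the 10, among them the 2 genes of the covariate itself, passed after adjustment, as did 0.0196% of all genes.

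**Figure D4:**
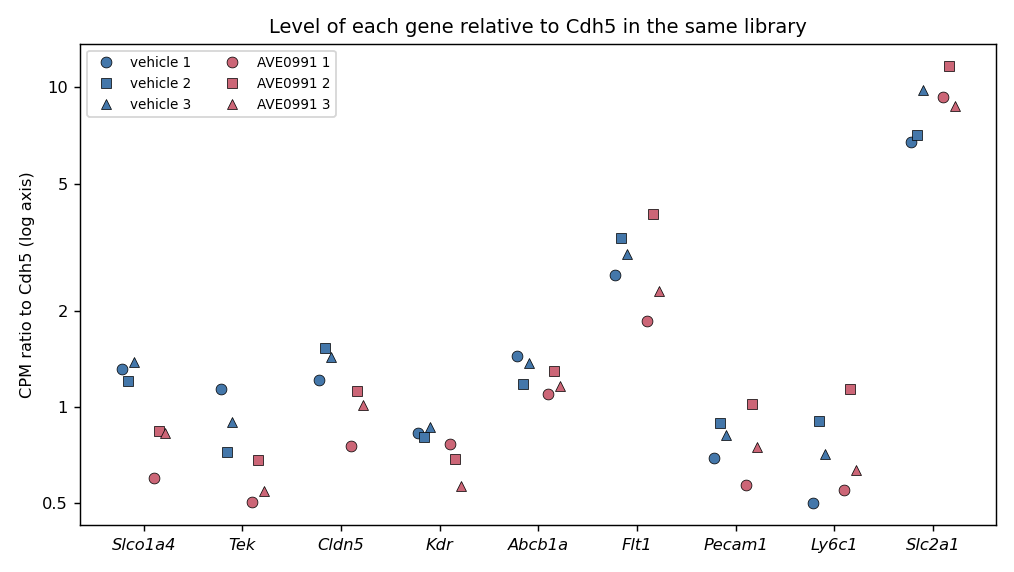
CPM of each of the other 9 genes divided by that of Cdh5 in the same library (vertical axis, log scale), for vehicle and AVE0991 libraries. Symbols are single libraries. Slco1a4, Tek, Cldn5 and Kdr stand lower in all 3 AVE0991 libraries than in any vehicle library, and the other 5 overlap.

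Other genes of the vascular pathways were read from 8 lists holding 141 further genes, of which 138 were tested. Which brain cells made their transcripts was not tested. By edgeR 0 of these rose and 1 fell, against 0.0344% of all genes called higher and 0.83% lower. DESeq2 called 6 higher and 3 lower, against 4.97% and 6.56% of all genes. Without AVE0991 replicate 1, edgeR called 12 of the 138 higher (8.70%) and 3 lower, against 6.63% and 4.76% of all genes. At an unadjusted p under 0.05 it called 21 of the 138 in all 6 libraries (15.2%), against 23.6% of all genes. Their groups did not overlap for 20 (14.5%), beside 30.6% of all genes, and 72 of 138 (52.2%) were highest in replicate 2 of both groups.

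The gene that fell was Tfrc, the transferrin receptor through which brain capillaries take up iron. It stood at 51.1, 55.7 and 52.2 CPM in vehicle and 33.7, 37.0 and 36.4 CPM in AVE0991 libraries, with no overlap. Its log2 fold change was -0.57 (SE 0.09, edgeR adjusted p = 0.0497). With the GC correction it was -0.12 and no longer passed, and the call was also lost with the replicate number as a block, with the covariate described above, with the circular RNA rows added, and when any library other than AVE0991 replicate 1 was left out. The Tfrc transcript has a GC content of 39.8%, near that of Slco1a4.

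Among 16 further tight and adherens junction genes 0 passed, 11 lay above 0 and 5 below, with a median log2 fold change of 0.24. Esam, an adhesion molecule of endothelial junctions, was the nearest, at 18.5 ± 1.34 CPM in vehicle and 12.8 ± 1.46 in AVE0991 libraries (log2 fold change -0.53, edgeR adjusted p = 0.0936). Its groups did not overlap, replicate 2 was the lowest library of each group rather than the highest, and both DESeq2 and limma-voom called it lower. Marveld2, which seals the corners where several cells meet in epithelia, read 0.904, 0.802 and 0.777 CPM in vehicle and 0.678, 5.31 and 4.43 CPM in AVE0991 libraries. Only the libraries with the cerebellar markers were high, and AVE0991 replicate 1 was the lowest of all 6.

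In the transporter and receptor list 1 of 20 passed, Tfrc, with 14 genes above 0 and a median of 0.21. Slc3a2, the heavy chain of the large amino acid carrier, read 104 ± 6.55 CPM in vehicle and 137 ± 17.8 in AVE0991 libraries (edgeR adjusted p = 0.134). It was at 0.20 on the log2 scale without AVE0991 replicates 2 and 3, against 0.40 with all libraries. Abcg2, a drug efflux pump of the barrier, was lower without overlap, at 10.5, 10.6 and 8.41 CPM in vehicle and 6.88, 7.12 and 7.83 CPM in AVE0991 libraries. Its log2 difference was -0.43 (SE 0.14, adjusted p = 0.147 by edgeR), and 0.049 after the GC correction. Mfsd2a, the lipid carrier that restrains vesicle transport across the barrier, read 14.4 ± 2.49 CPM in vehicle and 24.98 ± 11.8 in AVE0991 libraries (edgeR adjusted p = 0.203). The second value rested on AVE0991 replicate 2, at 38.6 CPM, with 18.4 and 17.9 CPM in the other two, and the log2 difference fell from 0.79 to 0.36 without replicates 2 and 3.

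Of 22 angiogenic ligands and receptors 0 passed, with 12 above 0, 10 below and a median of 0.07. Nrp1, the co-receptor of Kdr, read 51.9, 42.6 and 35.8 CPM in vehicle and 28.6, 21.5 and 32.4 CPM in AVE0991 libraries, without overlap. The log2 fold change was -0.66 (SE 0.19, adjusted p = 0.126 by edgeR). Angpt1, the ligand that activates Tek, had means of 6.42 and 4.04 CPM (log2 fold change -0.67, edgeR adjusted p = 0.211). After the GC correction Nrp1 was at -0.34 and Angpt1 at -0.19. Others of the list were higher without overlap and did not pass. S1pr1, the receptor through which a blood lipid steadies endothelial junctions, read 148.7, 128 and 141.5 CPM in vehicle and 157, 183.4 and 189.9 CPM in AVE0991 libraries (0.34 on the log2 scale, adjusted p = 0.150 by edgeR). Unlike the 10 genes, S1pr1 was lowest in vehicle replicate 2, and the cells behind its reads were not tested. Notch1, a receptor in arterial fate and vessel sprouting, had means of 76.7 and 101 CPM (0.40 on the log2 scale, adjusted p = 0.159 by edgeR). Without AVE0991 replicates 2 and 3, S1pr1 was at 0.18 and Notch1 at 0.12. In the Wnt list 0 of 20 passed (median 0.15). Its nearest gene was Wnt7a, a ligand that neural cells send to the endothelium, at 15.8, 13.3 and 15.02 CPM in vehicle and 17.3, 41.97 and 43.7 CPM with AVE0991 (difference 1.22 on the log2 scale, adjusted p = 0.119 by edgeR). The 2 AVE0991 libraries with cerebellar granule cell markers were high and the other lay just above the vehicle range. Without those 2 libraries the difference was 0.24, and the part of those cells was not tested.

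Of the endothelial identity genes 0 of 27 passed, 18 lay below 0, the median was -0.23, 0 had groups without overlap, and 19 were highest in both replicates 2. The activation and leakage list gave 0 of 16 (median 0.14), the arterial list 0 of 11 (median 0.03) and the capillary and venous list 1 of 12, Tfrc (median 0.03). In the activation list Ackr1, a chemokine-binding receptor of venules, had the smallest p and did not overlap, at 14.8, 14.3 and 15.7 CPM in vehicle and 16.1, 40.1 and 27.8 CPM in AVE0991 libraries (0.91 on the log2 scale, adjusted p = 0.152 by edgeR). Without AVE0991 replicates 2 and 3 its difference was 0.12. Plvap, which marks leaky vessels and is scarce in the mature barrier, had means of 6.65 and 7.99 CPM in vehicle and AVE0991 libraries (log2 fold change 0.27). Vcam1, an adhesion molecule for white blood cells, had means of 23.7 and 20.98 CPM (log2 fold change -0.18, and 0.25 after GC correction). Fbln5, an elastic fibre protein of arteries, was higher without overlap, at 5.67, 10.6 and 10.8 CPM in vehicle and 13.3, 19.9 and 16.3 CPM in AVE0991 libraries (0.87 on the log2 scale, adjusted p = 0.139 by edgeR). Without AVE0991 replicates 2 and 3 it was at 0.57.

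The genes whose log2 CPM was most like the mean profile of the 10 over the 6 libraries were Eng (r = 0.99), Uevld (0.99), Nos3 (0.98), Snupn (0.97) and Cxcl12 (0.97), out of 12117 genes with a mean of at least 5 CPM. These are descriptions over 6 libraries, and r exceeded 0.9 for 30 genes (0.248%). Eng, a co-receptor for bone morphogenetic proteins on endothelium, stood at 10.7, 22.4 and 12.1 CPM in vehicle and 7.64, 20.3 and 10.5 CPM in AVE0991 libraries. Nos3, the endothelial nitric oxide synthase, stood at 6.04, 11.1 and 7.03 CPM in vehicle and 4.93, 10.8 and 7.06 CPM in AVE0991 libraries. In both genes replicate 2 stood well above the other libraries of its group, as in the 10 genes. Uevld had the same shape at a much smaller swing, with all 6 libraries between 15.1 and 17.5 CPM.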

How the data were processed

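The data were rRNA-depleted, strand-marked RNA libraries of 3 vehicle and 3 AVE0991 samples, grouped by their labels. Reads were aligned with HISAT to mm9, per the submitters' processing notes. The labels name neither the annotation nor the counting tool. The authors deposited, per gene and circular RNA row, estimated counts (81.6% whole numbers as written, the rest fractional), FPKM values, and their own group comparison as log2 fold change, p-value and q-value. Fractional counts can arise where reads are shared between near-identical copies. Rows without an Entrez gene held 7.45% to 10.5% of gene-row counts and were kept.

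Counts of the 36210 gene rows were rounded, filtered with edgeR's filterByExpr (20363 left), scaled by TMM and fitted with edgeR 4.0.16 robust quasi-likelihood in R 4.3.3, with Benjamini-Hochberg adjustment over all genes and a threshold of 0.05. DESeq2 1.42.0, limma 3.58.1 (voom, and log2 of FPKM plus 0.1 or 1), other filters and scalings, GC and length corrections (loess, span 0.5), a replicate block and left-out libraries were alternatives. Correlations used log2 CPM with a prior count of 2. Ratios were tested with SciPy 1.17.1. Transcript GC was known for 19032 gene rows, 15607 of them tested. The GC correction left the other tested genes unchanged. All 10 genes were named, with up to 4 genes of the smallest p in each wider list, the first 3 markers of each other cell type, and the 5 genes most like the 10. The members and lists were chosen with earlier results of these data known. No pair of libraries agreed within sampling noise. On simulated counts of 19957 genes with 3 libraries per group, edgeR recovered 34% of changes of log2 size 1 and 84% of size 2, with 9 false calls among 127. On the same counts limma-voom made 8 false calls among 127 and DESeq2 59 among 213. With a GC bias planted in the counts, edgeR made 332 false calls among 468, and 10 among 133 after the GC correction. The share of false calls in the real libraries was not tested.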

Additional observations from a re-analysis of the deposited data

How the results depend on the processing

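None of the 10 endothelial and barrier genes passed the threshold under any of 21 alternatives. The smallest adjusted p was 0.0767, for Slco1a4 with Pecam1 and Cdh5 as a covariate. Cldn5, Slco1a4, Tek and Kdr lay below 0 under all 21. Their log2 fold changes ranged from -1.35 to -0.07 for Cldn5, from -1.53 to -0.33 for Slco1a4, from -1.24 to -0.33 for Tek and from -0.58 to -0.01 for Kdr. The median of the 10 was -0.10 with all libraries, -0.57 to 0.22 with 1 library left out, and -0.92 without AVE0991 replicates 2 and 3. List medians also changed sign, for example between -0.69 and 0.16 for endothelial identity.

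The numbers of all genes called higher and lower, 7 and 169 by edgeR, depended on the tool and the libraries. They were 1012 and 1335 by DESeq2, 449 and 721 by limma-voom, and 58 and 379 with no filter on low counts. Keeping genes whose mean reached 1 CPM gave 18 and 328. With the circular RNA rows they were 1 and 1, with the GC correction 1 and 1, and with the Pecam1 and Cdh5 covariate 1 and 3. They were 0 and 0 without AVE0991 replicates 2 and 3, and 0 and 0 without the libraries numbered 2. The length correction gave 13 higher, and limma on FPKM gave 287 lower with a pseudocount of 0.1 and 310 with 1. With 1 library left out they ran from 0 to 1386 and from 0 to 995. The high ends came without AVE0991 replicate 1, and the other 5 gave 0. In the wider vascular lists, 0 higher and 1 lower became 6 and 3 by DESeq2 and 1 and 2 by limma-voom. The lower count was 0 with the circular RNA rows, the GC correction, the covariate, without AVE0991 replicates 2 and 3 and without the libraries numbered 2. With 1 library left out these counts ran from 0 to 12 and from 0 to 3. The cause of these differences was not tested.

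Several genes changed sign. Pecam1 was 0.0015 by DESeq2, 0.0069 with no filter and -0.53 to 0.46 with 1 library left out. Cdh5 was 0.014 by limma-voom, 0.0021 with no filter, 0.10 without the libraries numbered 2, 0.026 with the covariate and -0.24 to 0.33 with 1 library left out. Ly6c1 was -0.039 by limma-voom and -0.56 to 0.80, Flt1 -0.78 to 0.41, Abcb1a -0.43 to 0.11 and Slc2a1 -0.013 to 0.64 with 1 library left out. After the GC correction Abcg2 was 0.049 and Vcam1 0.25. Without AVE0991 replicates 2 and 3, estimates far from 0 also reversed, such as those of Marveld2 (2.06 with all libraries) and Car4 (1.08). Ly6c1 was then -0.88, Slc2a1 -0.16, Marveld2 -0.28, Lsr -0.035, Ramp2 -0.057, Pltp -0.065, Plvap -0.046, Klf4 -0.058 and Car4 -0.060. The lone AVE0991 library of that fit was assumed to vary like the vehicle group.

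The labels share replicate numbers 1 to 3 between the groups but do not say what a number marks. Deviations from the group means of same-numbered libraries correlated at -0.02, 0.09 and -0.35 over 20363 genes, so the numbers were not taken to pair the libraries, and the best match of vehicle replicate 1 was AVE0991 replicate 3 (0.39). With the replicate number as a block, edgeR called 0 genes higher and 0 lower, 0 of them in the wider lists, and 0 of the 10. In that blocked fit 3 of the 10 had an unadjusted p under 0.05, as did 19.3% of all genes. The Slco1a4 difference was -0.78 (edgeR adjusted p = 0.179), Cldn5 -0.53 (edgeR adjusted p = 0.215) and Cdh5 0.0086. With the block and the GC correction together, 0 genes were called higher and 0 lower, 0 in the wider lists, and Abcg2 was 0.057 and Vcam1 0.25.

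With 3 libraries per group, the 95% interval of the fold change spanned 0.597 to 1.64 for Cdh5 and 0.416 to 2.94 for Ly6c1. The data leave changes within these ranges possible, and the intervals are not limits of detection.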

Other observations

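The deposited FPKM values and the counts differed in pattern for 2 endothelial genes. For Tek, FPKM divided by CPM was 1.22, 0.596 and 1.03 in vehicle and 1.08, 0.687 and 0.866 in AVE0991 libraries, a 2.04-fold range, and for Slco1a4 the range was 1.41-fold. For the other 8 genes it was at most 1.09-fold. In FPKM, Tek read 11.9, 6.62 and 7.40 in vehicle and 4.13, 5.94 and 4.46 in AVE0991 libraries, and Slco1a4 read 5.13, 7.53 and 4.75 against 1.96, 3.43 and 3.34. On that scale neither gene's groups overlapped, whereas in CPM both did. The share of all genes without overlap was computed in CPM only, where it was 30.6%. With limma on log2 of FPKM plus 0.1, neither passed (limma adjusted p = 0.142 for Tek and 0.111 for Slco1a4).

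Near-identical relatives held fewer counts than the members they resemble. Ly6c2, a close copy of Ly6c1, held 26.1 to 62.8 counts per library, equal to 3.85% to 32.6% of the Ly6c1 count, and Abcb1b held 60.9 to 140.2 counts, equal to 7.74% to 29.8% of the Abcb1a count. Slco1a1 had 0 counts in every library, and Slco1a5 and Slco1a6 at most 19.1 and 27.4. The labels do not say how reads were divided between such copies, so values of Ly6c1, Abcb1a and Slco1a4 are uncertain to that extent.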
